A study of Drosophila melanogaster with 13 samples.

Results

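Testes of flies carrying magn[12c]/magn[23b] were compared with testes of flies carrying magn[12c]/magn[12c];pSC2, the 2 magn allele combinations of a study of Drosophila melanogaster spermatogenesis. The combinations were taken from the genotype labels, and each has 2 of the 13 arrays, so 4 arrays enter the comparison. They are called 12c/23b and 12c/12c;pSC2 here. The labels do not say what pSC2 is, and the descriptions of the same arrays read Sc2e in its place. The other 9 arrays, 3 each, are testes of aly[2]/aly[5p] and sa[1]/sa[2] mutants and of red[1], e[1] flies, which serve as WT. All flies were young adults at 0 to 1 day after eclosion and were raised at 25 °C. Testes were dissected away from the seminal vesicles and accessory glands, and RNA of whole testes was hybridised to Affymetrix arrays. Replicates are biological per the labels, and separate crosses are not mentioned, so p-values measure the spread between these arrays, which may be technical. Values are log2 expression levels.

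In a Drosophila testis, germ cells divide as spermatogonia, grow as primary spermatocytes, pass through meiosis and elongate into sperm. Primary spermatocytes switch on a large set of genes whose products are used in meiosis and in spermatid differentiation. The gene aly belongs to the testis meiotic arrest complex (tMAC) and sa encodes a testis-specific TBP-associated factor (tTAF), and mutants of either gene stop as mature spermatocytes and lack many of these transcripts. The magn (magellan) alleles are mutations of Ubi-p63E, a polyubiquitin gene that supplies free ubiquitin to male germ cells. A whole testis also contains cyst cells and a muscle sheath, and the neighbouring accessory glands and ejaculatory duct make seminal fluid proteins in very large amounts. A change in the number of cells of a type cannot be told apart from a change in RNA per cell in whole-tissue RNA.

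The transcript of the mutated gene was nearly lost in both combinations. Ubi-p63E had log2 levels of 3.93 and 5.47 in the 12c/23b arrays and of 3.88 and 3.59 in the 12c/12c;pSC2 arrays, against 14.75, 14.65 and 14.90 in WT. Both 12c/23b values were above both 12c/12c;pSC2 values, and only 1 of the 4 magn arrays passed a log2 value of 4, the limit used here for expression, so Ubi-p63E was not tested. The other polyubiquitin gene, Ubi-p5E, had levels of 12.94 and 12.84 in 12c/23b and of 13.12 and 13.09 in 12c/12c;pSC2. Its difference of -0.21 did not pass the test (adjusted p = 0.523 by limma). Germline genes were present in all 4 arrays, with sa at 12.56 and 12.49 in 12c/23b and at 12.15 and 12.36 in 12c/12c;pSC2.

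A gene was tested when its probe set was above log2 4 in at least 2 of the 4 magn arrays. This left 8341 of the 11981 genes that have a probe set of their own, 7883 of them above that limit in all 4 arrays. The gene at the lower edge had a second-highest value of 4.005, and the closest gene left out had 3.996. Replicates of a combination resembled each other more than they resembled the other combination, with Pearson correlations across the tested genes, which are not independent replicates, of 0.978 within 12c/23b, 0.9885 within 12c/12c;pSC2 and 0.9331 to 0.941 between them. The 2 replicates differed at least 2-fold in 572 genes in 12c/23b (6.86%) and in 204 genes in 12c/12c;pSC2 (2.45%). The means of the combinations differed at least 2-fold in 1200 genes (14.4%).

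Some technical measures also separated the combinations. The 3′ minus 5′ difference of the actin control probe sets, a sign of how complete the RNA or its copy is, was 0.72 and 0.54 in 12c/23b and 1.82 and 0.96 in 12c/12c;pSC2, and that of eIF4a was 1.94 and 1.73 against 2.62 and 1.99. The same difference for GAPDH overlapped between the combinations. The arrays are alike in the number of probe sets above log2 4, with 9759 and 9714 in 12c/23b and 9741 and 9641 in 12c/12c;pSC2. The part of RNA integrity in the differences below was not tested. Array medians were averaged over the 2 arrays of each combination. That of the 41 cytosolic ribosomal protein genes was 0.20 lower on the log2 scale in 12c/23b, and that of all tested genes differed by -0.015.

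Most genes that differed were higher in 12c/23b. Of 8341 genes, 929 (11.1%) were called, which means an adjusted p under 0.05 (limma, residual spread of all 13 arrays in 5 groups, Benjamini-Hochberg) and a change of at least 2-fold. Higher levels in 12c/23b were called for 721 genes (8.64%) and lower levels for 208 genes (2.49%). The median difference of all tested genes was -0.108. The arrays of the combinations did not overlap in 5301 genes (63.6%), so lack of overlap by itself says little with 2 arrays against 2, for which an exact permutation test cannot go below p = 0.333. The filter lets in 196 genes that were above log2 4 in both arrays of one combination and in no array of the other. Of these 84 were called higher and 40 lower. They are part of the counts above, and since a high level in one combination is what let them in, their calls are a description.

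**Figure D1:**
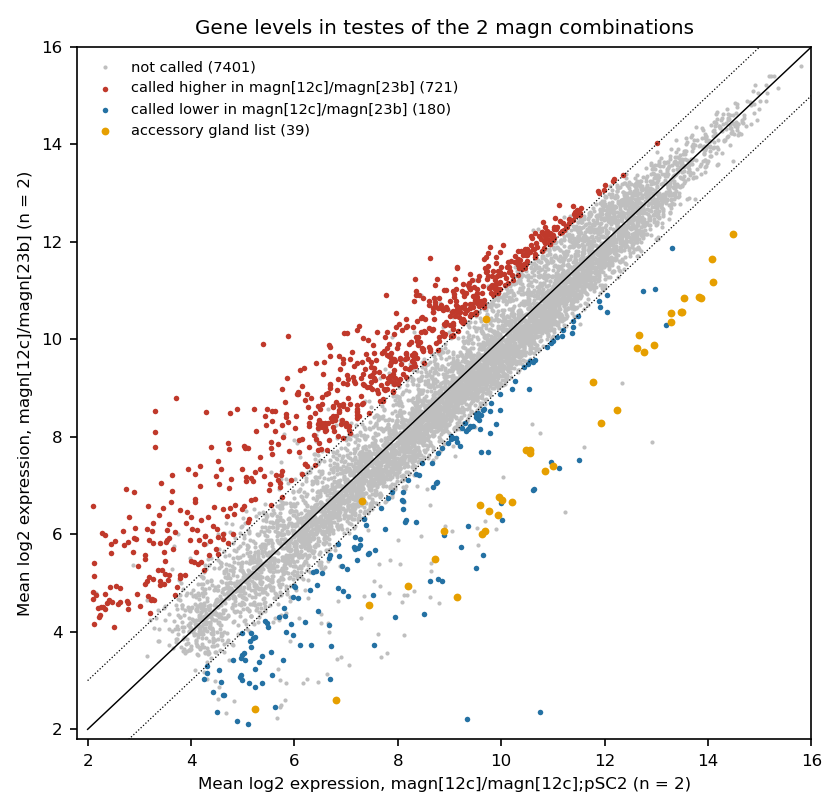
Mean log2 expression in 12c/23b (vertical axis) against 12c/12c;pSC2 (horizontal axis), 2 arrays each, for the 8341 genes tested. Each point is a gene, the solid line marks equal levels and the dotted lines 2-fold differences. Called genes above the diagonal (721) spread over a wide range of levels, and 38 of the 39 accessory gland genes (orange) lie below it.

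Most of the genes that were higher in 12c/23b were genes with low levels in aly and sa testes. Of the 1088 tested genes that were called at least 4-fold lower in both aly and sa than in WT, 485 were higher in 12c/23b (44.6%, against 8.64% of all tested genes) and 9 were lower (0.827%). They make up 67.3% of all genes called higher. The median difference of these 1088 genes was 1.00. Their class was set by the contrasts of aly and sa with WT. The magn arrays entered it through the filter, the choice of probe set and the residual spread of the shared fit. In these 8341 genes aly differed from WT in 69.7% (45.0% higher, 24.7% lower) and sa in 62.7% (41.3% higher, 21.4% lower) at 2-fold. Against WT, their median difference was -0.983 in 12c/23b and -1.92 in 12c/12c;pSC2. Leaving out 1 magn array at a time gave 309 to 418 of them higher, with the 309 obtained without replicate 2 of 12c/12c;pSC2. With the median of 39 accessory gland genes as a covariate, which itself separates the combinations, 166 of 1083 were higher and 3 lower. Some of the 485 genes may have passed the limit of log2 4 only through 12c/23b. In a fit of genes above that limit in all 4 magn arrays, 431 of 1014 were higher and 6 lower.

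Genes that were low in only one of the aly and sa mutants were considered separately. Of 573 genes at least 4-fold lower in aly only, 72 were higher in 12c/23b (12.6%) and 35 were lower (6.11%, against 8.64% and 2.49% of all tested genes). All 35 lower genes belong to the accessory gland and duct lists or vary with the accessory gland genes, and of the 505 genes outside these groups 72 were higher (14.3%) and none lower. Of 91 genes at least 4-fold lower in sa only, 16 were higher (17.6%). Genes that were at least 4-fold higher in both aly and sa than in WT went the other way, with 12 higher and 58 lower of 1186 (4.89% lower, against 2.49% of all tested genes) and a median of -0.421. In the class of 4144 genes that passed the 4-fold limit in neither direction in aly or sa, 112 were higher (2.7%) and 76 were lower (1.83%). Genes at least 4-fold higher in only one of the mutants are in none of these classes.

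The WT level of the genes that were higher in 12c/23b was usually higher still. For 524 of the 721 genes (72.7%) the WT mean lay above both combinations, for 94 between them and for 103 below both. Among all tested genes, WT lay above both for 29.0%, and among uncalled genes with a higher mean in 12c/23b for 42.6%. The median level of the 721 genes was 9.52 in 12c/23b and 7.73 in 12c/12c;pSC2, and it was 3.01 in aly, 7.45 in sa and 11.1 in WT. Each combination was also set against WT on the same 8341 genes. The 12c/23b arrays differed from WT in 3222 genes (38.6%), with 2271 higher (27.2%) and 951 lower (11.4%). The 12c/12c;pSC2 arrays differed from WT in 4163 genes (49.9%), with 2838 higher (34.0%) and 1325 lower (15.9%). Both counts use the same WT arrays, and their split between higher and lower depends on the scaling. With the arrays centred on ribosomal protein genes, higher levels were 22.6% of the calls for 12c/23b and 21.2% for 12c/12c;pSC2, in place of 70.5% and 68.2%.

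Among genes with a name of their own, shps and Acyp had the largest rises, and both are abundant in WT testes. The gene shps had levels of 8.39 and 9.20 in 12c/23b and of 4.17 and 3.26 in 12c/12c;pSC2, and averaged 11.37 in WT. It was higher in 12c/23b by 5.08 (SE 0.51, adjusted p = 4.3e-05 by limma). Acyp, an acylphosphatase, had 9.97 and 9.86 in 12c/23b and 5.24 and 5.56 in 12c/12c;pSC2, with 12.93 in WT and 2.73 in aly. Its difference of 4.52 (SE 0.45) also passed (adjusted p = 3.85e-05 by limma). For both genes the 12c/23b arrays lay between the other combination and WT.

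Further genes with large rises include a dynein light chain gene and a paralog of a mitochondrial subunit. Where all arrays of a group were at or below log2 4, the fold is a lower bound that takes 4 as the level of that group. Where that group is a magn combination, the gene passed the limit of log2 4 only through the other combination. Its call is then a description. The dynein light chain gene robl37BC had levels of 7.85 and 7.74 in 12c/23b and of 3.45 and 3.17 in 12c/12c;pSC2, which makes it at least 13.9-fold higher in 12c/23b. ND-51L2, a paralog of a mitochondrial complex I subunit, had 7.61 and 8.13 in 12c/23b against 4.90 and 4.54 in 12c/12c;pSC2. In sa testes it averaged 7.62, near the 12c/23b arrays, and in WT 11.19. Uros2 was higher by 3.13 and cysu by 3.24, and Ets96B, an Ets-family transcription factor gene, was at least 3.44-fold higher, all with adjusted p-values under 0.05 by limma. Cyp6w1, a cytochrome P450 gene, was at least 5.25-fold higher, and side-II, which encodes an immunoglobulin-family surface protein, at least 2.21-fold higher. These last 2 genes differ from the others in that WT was also below log2 4, with means of 3.10 for Cyp6w1 and 2.12 for side-II.

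Among genes known only by a CG number, CG14000 had the largest rise of all tested genes (5.23) and was at least 23.0-fold higher in 12c/23b, with 8.49 and 8.56 in 12c/23b and 3.57 and 3.03 in 12c/12c;pSC2. CG30161 was at least 17.1-fold higher in 12c/23b, with 8.09 and 8.10 against 3.30 and 3.30, and it averaged 9.46 in aly, 8.51 in sa and 11.58 in WT. The 12c/12c;pSC2 arrays were thus the only ones in which CG30161 was not above log2 4. CG14505 was higher by 4.22 and CG32117 by 4.19, and both averaged over 10 in WT. CG32681 was at least 7.65-fold higher. CG33307 had 6.39 and 6.76 in 12c/23b and was at the floor of the normalized values, 2.10, in both 12c/12c;pSC2 arrays and in WT, which makes it at least 5.96-fold higher.

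**Figure D2:**
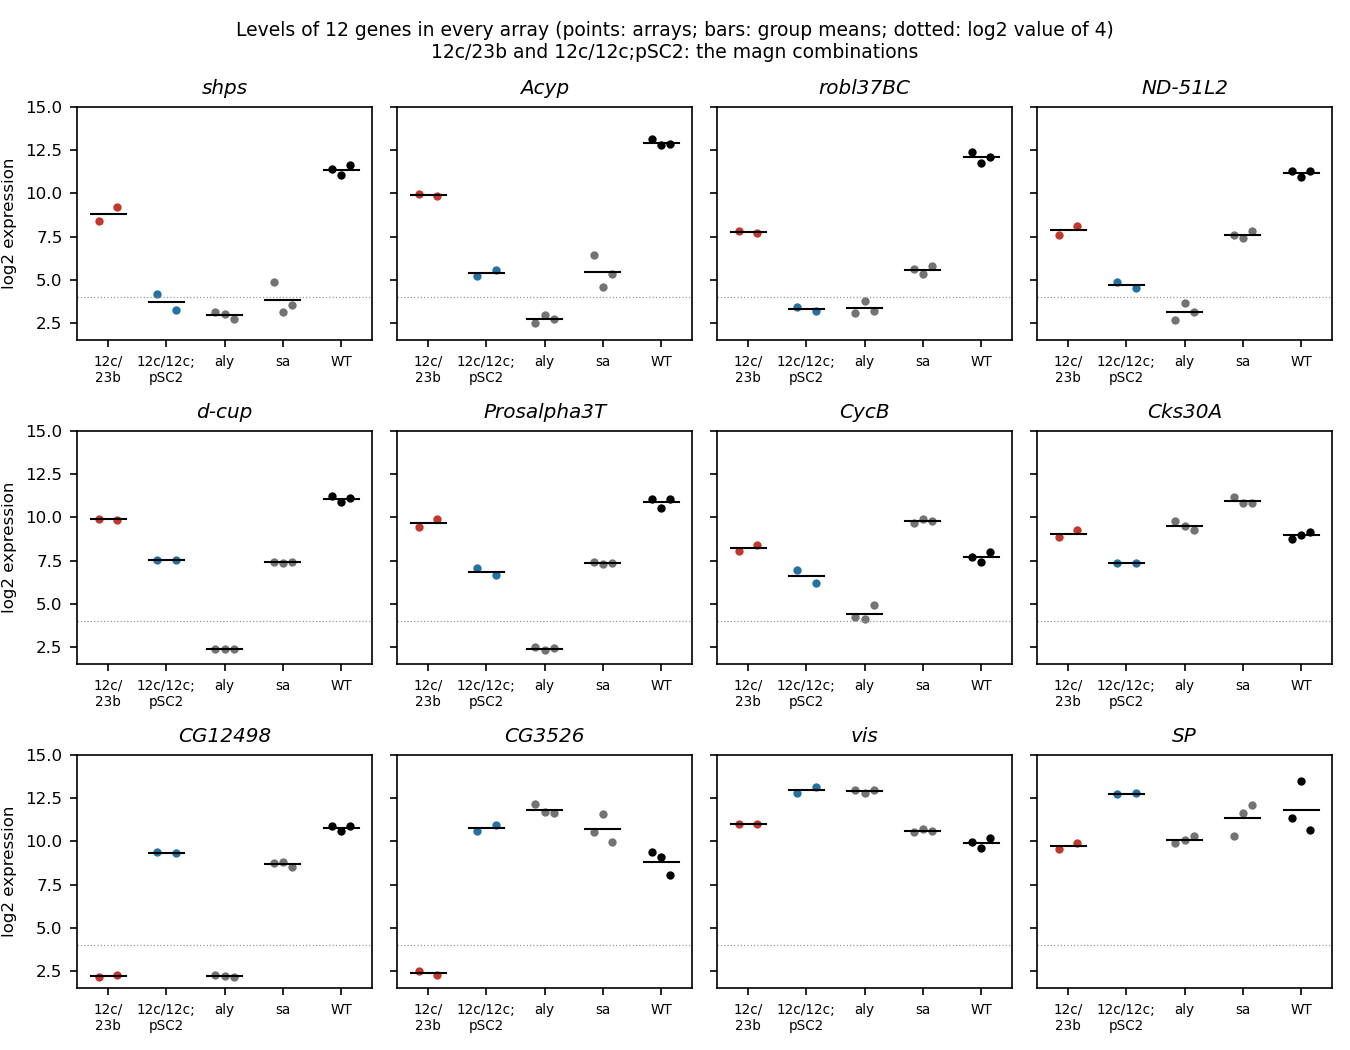
Log2 expression of 12 genes in each of the 13 arrays, with 12c/23b in red at the left, then 12c/12c;pSC2, aly, sa and WT. Points are arrays and bars are group means. In the first 6 panels 12c/23b lies between 12c/12c;pSC2 and WT, and CG12498 and CG3526 are close to the floor in 12c/23b.

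Some testis-specific proteasome subunits were higher in 12c/23b, and no general subunit was called. The proteasome degrades proteins tagged with ubiquitin, and Drosophila testes replace several of its subunits by paralogs that are expressed in the male germline. Of 13 measured paralogs, 6 were higher in 12c/23b (8.64% of all tested genes were) and none lower, with a list median of 0.96. The largest was Prosalpha3T, a paralog of a core alpha subunit, with levels of 9.43 and 9.88 in 12c/23b and 7.07 and 6.64 in 12c/12c;pSC2. Its difference was 2.80 (SE 0.28, adjusted p = 3.86e-05 by limma), and WT averaged 10.89. The other 5 were Prosalpha4T1 (1.79), Prosbeta5R2 (1.54), Prosbeta4R1 (1.20), Prosalpha6T (1.11) and Prosbeta4R2 (1.02), each given as a log2 difference. Prosbeta4R2 was above WT in all 4 arrays, with a WT mean of 2.64. Leaving out 1 magn array at a time gave 4 to 7 paralogs higher and none lower, and the fit with the accessory gland covariate gave 1 higher and none lower.

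None of the 26 general proteasome genes was called in either direction (11.1% of all tested genes were), and 25 of them had a lower mean in 12c/23b, with a median of -0.308. The largest change was that of Prosalpha6, with 12.168 and 11.951 in 12c/23b against 13.004 and 12.992 in 12c/12c;pSC2. Its difference of -0.94 had an adjusted p of 0.00216 by limma but was short of 2-fold. Prosbeta2 had a difference of -0.75 and Prosbeta5 of -0.62. With the arrays centred on ribosomal protein genes the median of the list was -0.107. The 19 genes for polyubiquitin and ubiquitin handling had no call and a median of -0.163, which turned to 0.037 with that centring.

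Among genes that control the spermatocyte programme, vis was the only one called. None of the 5 tTAF genes passed, a list too short to show fewer calls than the 11.1% of all tested genes. The median of the tTAF genes was -0.311. The tTAF gene sa had the only positive difference, 0.27, and can had -0.62 (adjusted p = 0.0824 by limma). Of 10 tMAC genes and partners 1 was called, near the 11.1% of all tested genes, and the list median was -0.152 (0.049 with ribosomal protein centring). This gene was vis, which encodes a homeodomain protein that works with tMAC. It had levels of 11.03 and 11.04 in 12c/23b and of 12.78 and 13.16 in 12c/12c;pSC2, where aly averaged 12.91, sa 10.61 and WT 9.93. The difference was -1.93 (SE 0.19, adjusted p = 3.85e-05 by limma). Its near-identical tandem copy achi had 8.004 and 7.642 in 12c/23b and 7.701 and 7.357 in 12c/12c;pSC2, a difference of 0.29 that did not pass. Signal shared between probe sets of such copies cannot be separated in these values. The tMAC genes comr (-0.04) and topi (-0.16) were not called.

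Of 17 meiotic cell cycle genes 2 were called, both higher in 12c/23b, a share of 11.8% that is near the 11.1% of all tested genes, and the median was -0.07. CycB encodes cyclin B, which activates Cdk1 for entry into division. It had 8.03 and 8.39 in 12c/23b and 6.98 and 6.22 in 12c/12c;pSC2, a rise of 1.61 (SE 0.35, adjusted p = 0.00635 by limma), and WT averaged 7.71. The call for CycB was lost without replicate 2 of 12c/12c;pSC2 and without replicate 2 of 12c/23b. Cks30A, whose product binds cyclin-dependent kinases, had 8.89 and 9.24 in 12c/23b and 7.36 and 7.34 in 12c/12c;pSC2, a rise of 1.72 (SE 0.23, adjusted p = 0.0003 by limma). WT averaged 8.96 for Cks30A, so the 12c/23b arrays were near WT and the 12c/12c;pSC2 arrays were below it.

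The cell cycle genes twe and bol, unlike CycB, did not pass. The Cdc25 phosphatase gene twe had 7.34 and 7.44 in 12c/23b and 6.77 and 6.77 in 12c/12c;pSC2, with a difference of 0.62 (adjusted p = 0.127 by limma). For bol, which encodes an RNA-binding protein needed for meiotic entry, the difference was -0.07 (adjusted p = 0.931 by limma), and the arrays overlapped. Rbp4 had a difference of -0.77. None of the 15 early germline genes, expressed in stem cells and spermatogonia or in the piRNA pathway, was called (11.1% of all tested genes were). The list is too short to show fewer calls than that, and its median was 0.083. The piRNA gene piwi had the largest difference, 1.28 (adjusted p = 0.0767 by limma), and aub had -0.48.

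Transcripts used late in sperm formation had positive medians. The cup and comet genes, transcribed in spermatids after meiosis, had 4 of 13 members higher and 1 lower, with a median of 0.69, where 8.64% of all tested genes were higher and 2.49% lower. In this list d-cup had 9.93 and 9.86 in 12c/23b and 7.51 and 7.55 in 12c/12c;pSC2, a rise of 2.37 (SE 0.23, adjusted p = 3.47e-05 by limma). The genes t-cup (2.10), sunz (1.53) and schuy (1.31) were also higher. The call of t-cup was lost when any 1 of the 4 magn arrays was left out. The lower gene was scpr-C, at 5.68 and 4.74 in 12c/23b and 6.87 and 6.19 in 12c/12c;pSC2, far below its WT mean of 12.11. Its call was lost without replicate 1 of 12c/12c;pSC2 and without replicate 2 of 12c/23b.

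Genes of the sperm tail and Y-linked fertility genes had 4 of 14 members higher (8.64% of all tested genes were), none lower and a median of 0.75. With the accessory gland covariate 2 of the 14 and 2 of the 13 cup and comet genes were higher. ORY and Ppr-Y, among the 4, passed the limit on low values only through the 12c/23b arrays. Dhc36C encodes an axonemal dynein heavy chain and had 7.97 and 8.65 in 12c/23b and 6.67 and 5.07 in 12c/12c;pSC2, a rise of 2.44. Tektin-A, which encodes a filament protein of axonemal microtubules, rose by 1.28. The Y-linked genes ORY and Ppr-Y were at least 4.38-fold and 1.58-fold higher, with ORY at 6.08 and 6.19 in 12c/23b and 3.25 and 2.60 in 12c/12c;pSC2. WT averaged 8.68 for ORY and 7.17 for Ppr-Y, and the call of ORY was lost without replicate 2 of 12c/12c;pSC2. The Y-linked dynein gene kl-3 did not reach the limit for testing. It had 4.30 and 3.58 in 12c/23b and 2.11 and 2.11 in 12c/12c;pSC2.

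Of 20 genes for Mst proteins, don juan and sperm chromatin, which are abundant in spermatids, 1 was higher (5.0%) and none lower, 18 had positive differences and the median was 0.308. The called gene was fzo, a mitochondrial fusion gene of spermatids, with 11.39 and 11.81 in 12c/23b and 10.31 and 10.23 in 12c/12c;pSC2. Its rise was 1.33, and WT averaged 10.82. The call of fzo was lost without replicate 2 of either combination. Mst77F, a sperm chromatin gene, had 15.25 and 15.19 in 12c/23b and 14.87 and 14.94 in 12c/12c;pSC2, near the top of the range of the arrays. None of the 4 sperm leucyl aminopeptidase genes was called, too few to set against the 11.1% of all tested genes, and their median was 0.189. Of 41 cytosolic ribosomal protein genes 3 were higher (7.32%, near the 8.64% of all tested genes), RpS28a (1.71), RpS28-like (1.19) and RpL10Aa (1.16), and the other 38 had negative differences. These 3 are extra copies of ribosomal protein genes, and each lost its call in at least 1 of the 4 fits without 1 magn array. RpS28a was also not called with only the 4 magn arrays in the fit, and RpL10Aa averaged 13.50 in WT and 2.61 in aly.

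**Figure D3:**
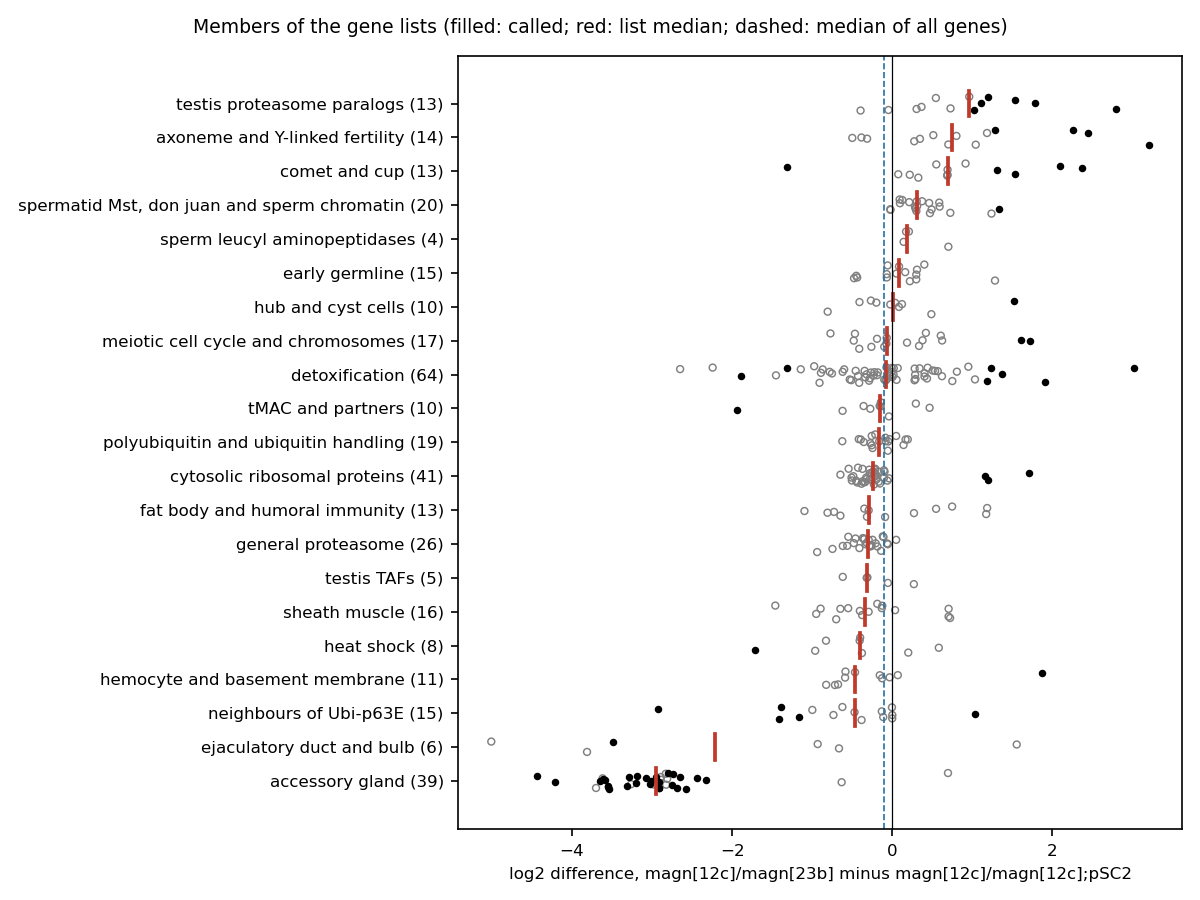
Log2 difference, 12c/23b minus 12c/12c;pSC2, of each tested member of the gene lists with at least 4 tested members. Filled points were called, red bars are list medians and the dashed line is the median of all tested genes (-0.108). Testis proteasome paralogs (0.96) have the highest median and accessory gland genes (-2.951) the lowest.

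Seminal fluid transcripts formed a separate block that was lower in 12c/23b. Of 42 accessory gland genes on the arrays 39 were tested. In these, 28 were lower in 12c/23b (71.8%, against 2.49% of all tested genes), none was higher, and the list median was -2.951. In 38 of the 39 genes both 12c/23b arrays lay below both 12c/12c;pSC2 arrays, and 35.8% of all tested genes were lower in 12c/23b in this way. The median level of the 39 genes was 7.42 and 7.71 in the 12c/23b arrays and 10.67 and 10.85 in the 12c/12c;pSC2 arrays. Replicates of the other groups had medians of 7.59, 6.96 and 8.07 in aly, 7.74, 8.55 and 9.03 in sa, and 9.24, 12.17 and 8.36 in WT. The WT arrays thus spread as widely as the combinations lie apart, through replicate 2, and the aly and sa arrays less widely. All 39 genes were above log2 4 in the 12c/12c;pSC2 arrays and 37 of them in each 12c/23b array. The dissections left out the accessory glands, per the labels, so these levels measure transcripts of a tissue that was to be absent, and the part of the dissection was not tested.

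Differences on the accessory gland list ranged from -4.433 to 0.695, and the genes named here include its largest changes. Sfp53D, a seminal fluid protein gene, had 4.61 and 4.82 in 12c/23b and 9.29 and 9.01 in 12c/12c;pSC2, a fall of 4.43 on the log2 scale (SE 1.08, adjusted p = 0.0133 by limma). SP encodes sex peptide, which changes the behaviour of mated females, and was picked as an example after its values were seen. It had 9.56 and 9.92 in 12c/23b and 12.74 and 12.80 in 12c/12c;pSC2 (difference -3.03, adjusted p = 0.00989 by limma). Acp76A, a serpin gene, had -3.65 and CG9997, a protease homolog that acts with sex peptide, had -3.62, and Sfp38D was at least 6.99-fold lower. The only gene of the list with a higher mean in 12c/23b was Obp56i. It had 10.29 and 10.54 in 12c/23b and 9.78 and 9.66 in 12c/12c;pSC2, a difference of 0.70 that did not pass. It averaged 3.10 in aly, 7.98 in sa and 8.09 in WT.

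**Figure D4:**
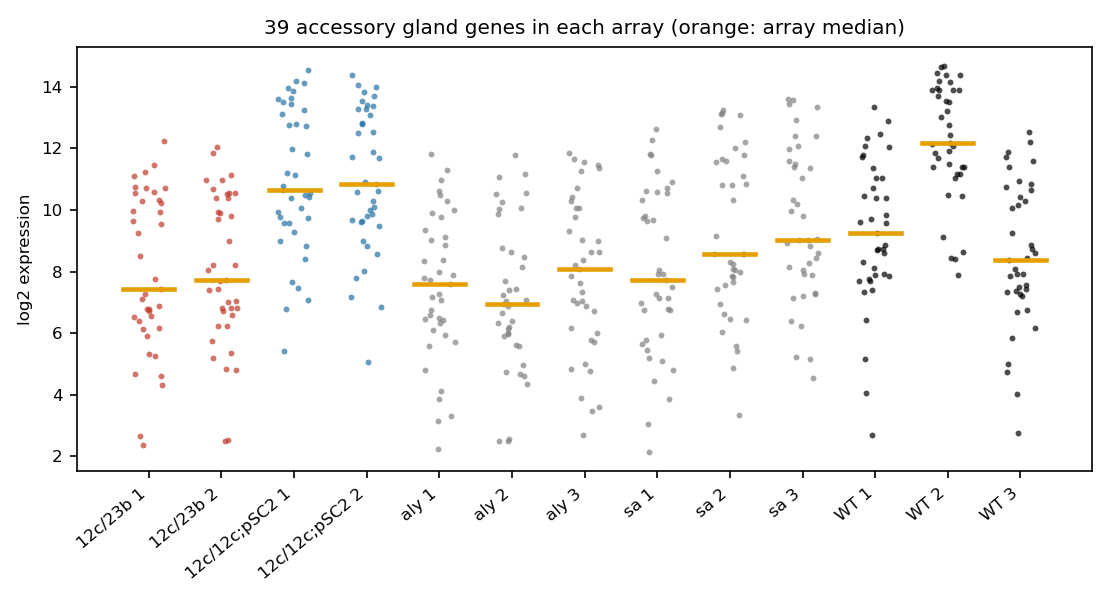
Log2 expression of the 39 tested accessory gland genes in each of the 13 arrays, with the array median in orange. The 12c/23b medians (7.42 and 7.71) are below those of 12c/12c;pSC2 (10.67 and 10.85), and WT replicate 2 (12.17) is above all other arrays.

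How many accessory gland genes were called depended on the arrays and the variance model that set the spread. Without WT replicate 2, and also in a fit of the 4 magn arrays alone, 36 of the 39 genes were lower. There were 17 in a fit of the magn and WT arrays, 16 without a variance trend, 9 with a robust variance model and 5 with no limit on low values. With any 1 magn array left out, 2 to 4 genes were lower, and the list median stayed between -2.92 and -3.01. Among 6 genes of the ejaculatory duct and bulb 1 was lower (2.49% of all tested genes were), Obp22a (-3.49), and the median was -2.209. Dup99B, a duct peptide gene related to sex peptide, had 9.05 and 6.75 in 12c/23b and 12.12 and 13.70 in 12c/12c;pSC2, and its difference of -5.01 did not pass (adjusted p = 0.0658 by limma).

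Transcripts that vary together with the accessory gland genes were set apart without the magn arrays. Of the genes outside these lists, 230 correlated at 0.8 or more with the list median over the 9 aly, sa and WT arrays after group means were removed. The list median spread most in WT, at 9.24, 12.17 and 8.36, so this correlation rests largely on WT replicate 2. Of these 230 genes 28 were lower in 12c/23b (12.2%) and 3 higher, with a median of -0.882. Several genes with large falls belong here, among them the C-type lectin genes lectin-30A (-3.75) and lectin-29Ca (-3.71), the sulfhydryl oxidase gene Qsox2 (-3.63), and CG31659, CG10029, CG17472 and CG12828 (-3.83 to -4.20). The serpin gene Spn28Da, at least 6.43-fold lower, and ssp7 (-2.91) are others. The calls of the first 8 of these genes were lost when any 1 of the 4 magn arrays was left out, and that of ssp7 for 3 of the 4. Outside the accessory gland and duct lists 721 genes were higher (8.69%) and 179 lower (2.16%). The 8066 genes that were in neither list and did not vary with the accessory gland genes had 718 higher (8.9%) and 151 lower (1.87%), with a median of -0.09. Of the 208 lower genes, 13.5% were on the accessory gland list, 13.5% varied with it and 72.6% were in the remaining group.

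Most of the 151 lower genes outside the accessory gland groups had a WT mean below both combinations. This held for 117 of them (77.5%), against 59.4% of all tested genes. The share was near the 75.1% of uncalled genes with a lower mean in 12c/23b, so it is not particular to the called genes. The median level of the 151 genes was 5.94 in 12c/23b and 7.68 in 12c/12c;pSC2, and it was 5.71 in WT. With the arrays centred on ribosomal protein genes 64 of the 151 calls were kept, and with the accessory gland covariate 55. The chaoptin gene chp had 3.91 and 4.37 in 12c/23b, 6.74 and 6.60 in 12c/12c;pSC2 and 7.94 in aly, a fall of 2.53 (SE 0.41, adjusted p = 0.00112 by limma). BBS4, a gene of the ciliary BBSome complex, and PH4alphaNE1, a prolyl hydroxylase gene, were near the floor in 12c/23b, aly, sa and WT and at 5.27 and 4.92 (BBS4) and 5.28 and 4.48 (PH4alphaNE1) in 12c/12c;pSC2. They were at least 2.14-fold and 1.84-fold lower in 12c/23b. Muc4B, a mucin gene, was at least 3.11-fold lower in 12c/23b, with 7.94 in WT. BBS4, PH4alphaNE1 and Muc4B passed the limit on low values only through 12c/12c;pSC2, so their calls are a description. The heat shock transcript lncRNA:alphagamma-element:CR32865 had 6.90 and 4.26 in 12c/23b and 10.06 and 9.23 in 12c/12c;pSC2, a fall of 4.07.

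The largest differences of all were those of 2 X-linked genes that were near the floor in 12c/23b. CG3526 had levels of 2.48 and 2.25 in 12c/23b and of 10.58 and 10.93 in 12c/12c;pSC2, at least 108-fold lower in 12c/23b (adjusted p = 6.42e-07 by limma). It averaged 11.85 in aly, 10.69 in sa and 8.83 in WT, so the 12c/23b arrays were the only ones without signal above log2 4. A second probe set of CG3526 was below log2 4 in all 4 magn arrays and in WT. CG12498 had 2.15 and 2.26 in 12c/23b and 9.38 and 9.32 in 12c/12c;pSC2, at least 40.7-fold lower in 12c/23b (adjusted p = 3.94e-09 by limma). It averaged 10.79 in WT, 8.68 in sa and 2.21 in aly. Both genes passed the limit on low values only through the 12c/12c;pSC2 arrays, so their calls and p-values are a description.

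These 2 genes lie near each other. In the RefSeq gene table of Release 6 plus ISO1 MT their starts are 80.9 kb apart on the X chromosome, and all 4 probe sets of single genes between them were at or below log2 4 in the 4 magn arrays. Of 16 other genes tested within 150 kb, differences ranged from -2.10 to 1.20 and 2 were called. They were per, a circadian clock gene with 4.03 and 5.64 in 12c/23b and 6.84 and 7.02 in 12c/12c;pSC2, and Ugalt, a UDP-galactose transporter gene with 6.22 and 5.02 against 7.44 and 7.45. Whether the chromosomes of the combinations differ in this region was not tested.

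**Figure D5:**
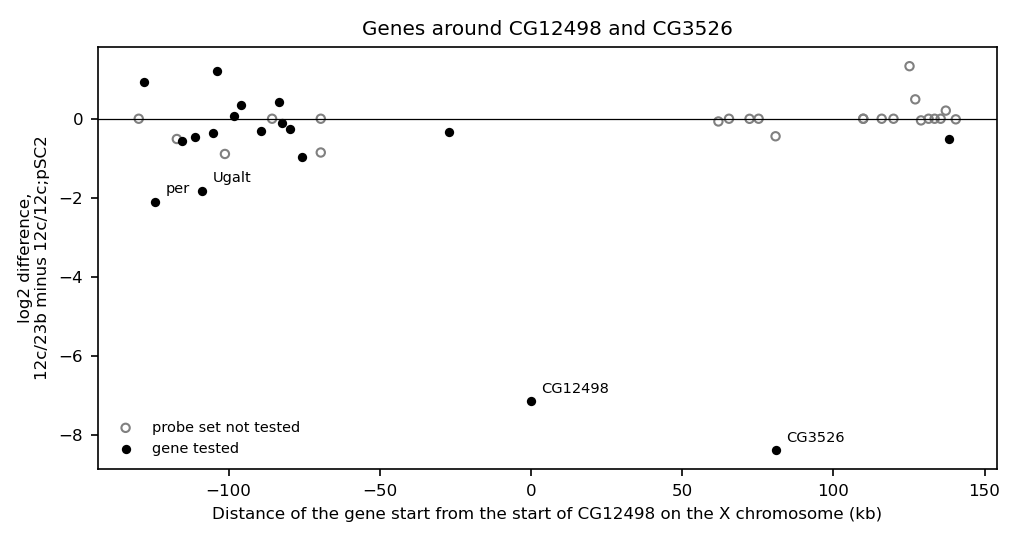
Log2 difference, 12c/23b minus 12c/12c;pSC2, of probe sets of single genes by the distance of the gene start from that of CG12498 on the X chromosome, in kb. Filled points are tested genes and open points probe sets that were not tested. CG12498 and CG3526 stand apart, and the 16 other tested genes lie between -2.10 and 1.20.

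Genes next to Ubi-p63E were examined because the alleles are mutations there. Of the 10 measured genes on each side 15 were tested, with 4 lower and 1 higher (2.49% and 8.64% of all tested genes) and a median of -0.472. One of the 4 is Acp63F (-2.93), which is also on the accessory gland list. The 2 neighbours on one side of Ubi-p63E, which overlap each other in the gene table, were both lower. Ccz1, which encodes part of an activator of Rab7, had 8.424 and 8.691 in 12c/23b and 9.953 and 9.996 in 12c/12c;pSC2, a fall of 1.42 (SE 0.30, adjusted p = 0.00634 by limma). Lamtor4, a gene of the lysosomal Ragulator complex, had 8.61 and 8.29 in 12c/23b and 9.51 and 9.72 in 12c/12c;pSC2, a fall of 1.16 (SE 0.22, adjusted p = 0.00296 by limma).

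WT averaged 7.81 for Ccz1 and 9.39 for Lamtor4, so the 12c/12c;pSC2 arrays were the farther from WT for Ccz1 and the 12c/23b arrays for Lamtor4. The call of Ccz1 was lost without replicate 2 of 12c/12c;pSC2, and that of Lamtor4 without replicate 2 of 12c/23b and with ribosomal protein centring. The neighbour on the other side, Sc2, had 10.92 and 10.87 in 12c/23b and 10.99 and 11.03 in 12c/12c;pSC2, with a difference of -0.11 (adjusted p = 0.543 by limma). The next genes beyond it, ida (-0.13) and mge (0.00), were not called either. The LIM homeodomain gene Awh was lower by 1.39 and CG14983 higher by 1.04. The call of Awh was lost without any 1 of the 4 magn arrays, and that of CG14983 without replicate 1 of 12c/23b.

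At most 1 gene was called in each of the 5 lists that follow, which hold markers of other cells in or near the testis and heat shock genes. In lists of 8 to 11 genes, 1 call is a share near the 11.1% of all tested genes. Lists of 13 or 16 genes without a call are too short to show fewer calls than that. Of 10 hub and cyst cell genes 1 was higher, the N-cadherin gene CadN, at 8.08 and 8.16 in 12c/23b and 6.33 and 6.86 in 12c/12c;pSC2. Its call and that of NimC1 were each lost in 3 of the 4 fits without 1 magn array. None of 16 sheath muscle genes (median -0.337) and none of 13 fat body and immune genes (median -0.296) was called. Among 11 hemocyte and basement membrane genes the phagocytosis receptor gene NimC1 was at least 1.98-fold higher, and the list median was -0.466. Of 8 heat shock genes 1 was lower, the co-chaperone gene stv, with 8.48 and 7.66 in 12c/23b and 10.11 and 9.46 in 12c/12c;pSC2. Hsp26 had a difference of -0.83 and Hsp68 of -0.96, both short of 2-fold.

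Of 64 detoxification genes 5 were higher and 2 lower, a share called of 10.9% that is near the 11.1% of all tested genes, and the median was -0.075. The higher ones include the P450 genes Cyp6w1, named above, Cyp28d1 (at least 2.41-fold, lost without replicate 2 of either combination) and Cyp6a2, at 6.12 and 4.73 in 12c/23b and 4.33 and 3.79 in 12c/12c;pSC2. The lower ones were Cyp4p1 (-1.89) and Cyp301a1 (-1.32). By chromosome arm, the share of tested genes that were higher was 5.39% on the X, 9.81% on 2L, 9.08% on 2R, 8.89% on 3L and 8.89% on 3R. On the Y, ORY and Ppr-Y are described above. Pp1-Y2 was higher by 1.84, with 9.74 and 9.91 in 12c/23b and 7.88 and 8.10 in 12c/12c;pSC2, and ARY, a Y-linked gene that the table places on no arm, had a difference of 0.70 that did not pass. Lower genes outside the accessory gland groups made up 2.15% of tested genes on the X, 1.54% on 2L, 2.99% on 2R, 0.97% on 3L and 1.82% on 3R. These shares are descriptions of the arms without a test.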

How the data were processed

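RNA of 13 testis samples was measured on 1 Affymetrix array each. The deposited values are log2 expression per probe set, which the authors normalized with GCRMA, per the submitters' processing notes, and the version is not given in the sources used here. Background correction with GCRMA puts dim probe sets on a shared floor of 2.1019, so folds of dim genes are bounds against a log2 value of 4. Of 18952 probe sets, 13646 pair with exactly 1 gene in the platform table, and the 183 controls, the 402 probe sets of several genes and the 4904 of none were not tested with the genes. Names and chromosome arms came from the RefSeq table of Release 6 plus ISO1 MT, which held 13543 of them. Genes above log2 4 in at least 2 of the 4 magn arrays were kept, each by its probe set with the highest mean in these arrays.

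Differences were tested with limma 3.58.1 in R 4.3.3 (lmFit, eBayes with trend) in a fit of 5 genotype groups with 8 residual degrees of freedom, with Benjamini-Hochberg adjustment over all genes. Genes at the floor in other groups have a small residual spread, and accessory gland genes a large one. In simulated data for this comparison with 8341 genes, 71 of 100 genes changed by 1.5 on the log2 scale and 98 of 100 changed by 3 were called, with 1 of 8141 unchanged genes. The changed genes were drawn from brightly expressed ones. All groups shared the mean and the normal spread of a gene, and no floor was applied. These rates thus do not carry over to genes near the floor or with unequal spread. Alternatives changed the filter, probe set choice, scaling, variance model, samples and fold minimum, 34 in all. Named genes were the 10 largest rises and falls among named symbols and the 6 among CG and CR symbols outside the accessory gland and duct lists, the 8 largest of those lists, the 4 largest of every other list, twe, bol, CycB, both polyubiquitin genes and the neighbours of Ubi-p63E that were called. Other genes are named as examples chosen after their values were seen. The members and lists were chosen with earlier results of these data known. Tables and plots used Python 3.11.15, pandas 2.3.3, numpy 2.4.6 and matplotlib 3.10.9. The number of arrays limits the precision.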

Additional observations from a re-analysis of the deposited data

Results flagged for a closer look

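A further 5123 probe sets pair with no gene or with several and are not part of the comparison above. Of these, 1023 passed the same limit on low values. Between the magn combinations 81 were called, 59 higher and 22 lower in 12c/23b, where 11.1% of all tested genes were called. Among called probe sets of no gene, the largest rise was that of 1635853_at (4.251). It had 7.13 and 7.23 in 12c/23b, 3.10 and 2.76 in 12c/12c;pSC2 and 10.1 in WT. This probe set passed the limit only through 12c/23b, so its call is a description. The probe set 1639675_at (3.797) had 7.17 and 7.13 in 12c/23b and 4.01 and 2.70 in 12c/12c;pSC2, and it averaged 2.12 in WT. The largest falls among called probe sets of no gene were those of 1638484_at (-2.838) and 1628649_at (-2.127). The first had 5.68 and 4.29 in 12c/23b and 8.39 and 7.26 in 12c/12c;pSC2, and the second 12.6 and 12.8 against 14.7 and 14.9.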

How the results depend on the processing

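The count of 929 genes called between the combinations (721 higher, 208 lower) moved most with the fold minimum and the covariate. It was 1406 with a 1.5-fold minimum (479 lower), 1521 with none (551 lower) and 288 with a 4-fold minimum (217 higher, 71 lower). With the accessory gland list median as a covariate, which itself separates the combinations, it was 391 (259 higher, 132 lower), and CG10029 (0.155), lectin-29Ca (0.165) and Qsox2 (0.482) turned positive. With ribosomal protein centring 852 were higher and 121 lower, which made higher levels 87.6% of the calls in place of 77.6%. For the contrasts with WT, higher levels were 50.6% of the calls for 12c/23b and 54.0% for 12c/12c;pSC2 with all-gene centring, and 55.9% and 59.4% with quantile normalization.

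Leaving out 1 array at a time gave 523 to 1047 calls, 431 to 753 higher and 92 to 295 lower. The lowest counts came without replicate 2 of 12c/12c;pSC2 (523, 431 and 92). Without its replicate 1, 100 genes were lower. Of the 721 higher and 208 lower genes, 221 and 29 kept their call in every alternative that tested them. Deviations from the group mean correlated above 0.1 in 7 of 23 same-numbered pairs of arrays (range -0.287 to 0.252). Between the 2 magn combinations the value was 0.2, necessarily the same for both replicate numbers with 2 arrays each. These values do not settle whether the replicate numbers pair the samples. The fit with the replicate number as a block called 894 genes (697 higher, 197 lower). For the 120 named genes, 3757 of 4014 alternative values kept direction and call, 203 lost the call and 51 gained it.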

Other observations

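Some transcripts were above log2 4 in both arrays of one combination and in none of the other 11 arrays. There were 29 such genes in 12c/23b and 18 in 12c/12c;pSC2, chosen by their levels in these arrays. The examples given here were chosen after their values were seen. In 12c/23b they include 3 gustatory receptor genes, Gr43a with 5.46 and 4.05 in 12c/23b and 2.16 and 2.16 in 12c/12c;pSC2, Gr64a with 5.20 and 4.35 against 3.12 and 2.78, and Gr64f with 4.40 and 4.39 against 3.86 and 2.56. The homeodomain gene hbn had 5.50 and 5.89 in 12c/23b and 3.52 and 3.79 in 12c/12c;pSC2. CG18467 had 6.28 and 6.42 in 12c/23b and 2.68 and 2.90 in 12c/12c;pSC2, and WT was at the floor. In 12c/12c;pSC2 they include BBS4 and Ance-4, a member of the angiotensin-converting enzyme family, which had 3.06 and 3.17 in 12c/23b and 5.51 and 5.63 in 12c/12c;pSC2.

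The reverse pattern, at or below log2 4 in both arrays of one combination and above it in the other 11 arrays, was rarer. It was seen for 8 genes in 12c/23b, among them CG3526, Muc4B and CG9702, and for 6 genes in 12c/12c;pSC2, among them CG30161, CG2772, CG17648 and CG31380. CG2772 had 5.55 and 5.28 in 12c/23b and 2.10 and 2.13 in 12c/12c;pSC2, and CG17648 had 6.73 and 6.26 against 3.81 and 3.75. CG31380 had 5.08 and 5.27 in 12c/23b and 3.41 and 3.72 in 12c/12c;pSC2. All 3 averaged above both combinations in WT, at 9.66 for CG2772, 11.45 for CG17648 and 7.74 for CG31380.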
